A study of Homo sapiens with 6 samples.

Results

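Potassium channel genes were taken as all gene symbols of the table that start with KCN and hold no hyphen, which gave 99 of 27980 symbols. The symbols include pore-forming subunits, auxiliary subunits, a regulator and 2 noncoding RNA genes. A further 17 KCN symbols with a hyphen, which are antisense, intronic or read-through transcripts, were left out. RNA came from RKO, a human line of poorly differentiated colon carcinoma, grown as 2 stable lines made with lentiviral short hairpins and puromycin selection. In 3 libraries the hairpin targeted TRIP6, a LIM-domain adaptor gene (shTRIP6, genotype label TRIP6 knockdown), and in 3 libraries it was scrambled (shControl, genotype label WT). All 6 libraries therefore share the vector type and the selection, and the number of hairpin sequences or clones behind each line is not stated in the sources used here. The labels call the replicates biological without naming separate cultures, so p-values measure only the spread between these libraries. A difference between the 2 stocks of cells cannot be told apart from the effect of the hairpins.

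Potassium channels let potassium ions leave the cell along their gradient and so set the resting membrane potential and shape electrical signals, secretion and cell volume. The sodium-potassium pump supplies the gradient. Voltage-gated channels open on depolarization, calcium-activated channels open when calcium rises in the cytosol, and inward rectifiers and 2-pore-domain channels pass current near the resting potential. In the epithelium of the colon, calcium-activated and other potassium channels maintain the driving force for chloride secretion and carry potassium into the lumen.

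Libraries held 29605764 to 32089298 counts, so that each count weighed 0.0314 to 0.0336 CPM, a measure relative to library size, here scaled by TMM. A count of 0 in a library allowed a level of up to 0.0941 to 0.101 CPM, the worth of 3 counts, and counting error is all that this limit covers. TRIP6 stood at 19.8, 19.4 and 19.5 CPM in shTRIP6 against 73.9, 86.5 and 80.6 CPM in shControl, and its mean was 24.3% of the control mean. The epithelial keratin gene KRT8 was abundant in both groups (1720 ± 72.9 CPM in shTRIP6 and 1804 ± 99.5 CPM in shControl, SD, n = 3). KRT18 was at 885 and 871 CPM, and neither gene was called. KRT19 was higher in shTRIP6, at 50.7 ± 3.15 against 13.8 ± 2.27 CPM (log2 fold change 1.87, edgeR adjusted p = 7.84e-12). EPCAM, CDX1 and VIL1 had no count in any library, and CDX2, CDH1, LGR5, MUC2 and CA1 were below 0.3 CPM in both groups. The epithelial and colonic list summed to 2533 to 2731 CPM in shTRIP6 and 2516 to 2804 CPM in shControl. Summed over each marker list, neuronal and neuroendocrine genes came to 5.79 to 6.85 CPM in shTRIP6 and 7.99 to 8.96 CPM in shControl, muscle genes to 1.82 to 2.29 and 2.46 to 2.79 CPM, endothelial genes to 0.257 to 0.288 and 1.78 to 2.31 CPM, and leukocyte genes to 1.63 to 2.76 and 0.37 to 1.03 CPM. The neuronal genes STMN2, GAP43 and NEFL and the muscle genes MYOD1, MYOG and TNNT2 had no count. SNAP25 was called higher in shTRIP6 (3.51 against 2.49 CPM), and MAP2 (0.508 against 2.55 CPM) and SYT1 (0.0643 against 0.519 CPM) were called lower. SYP (1.35 against 1.99 CPM), CHGB (0.669 against 0.681 CPM) and the muscle gene MYH11 (2.11 against 2.45 CPM) were not called. The endothelial gene PECAM1 fell from 1.65 CPM to 0 counts, and the leukocyte gene CD14 rose from 0.52 to 2.22 CPM. Fibroblast genes came to 159 to 180.1 CPM in shTRIP6 and 114 to 127 CPM in shControl, most of it THY1, which rose from 89.3 to 153 CPM. PDGFRB rose too (6.89 to 13.9 CPM), while 4 other fibroblast genes fell: FAP from 15 to 0.328 CPM, COL1A1 from 5.16 to 2.38 CPM, COL3A1 from 2.35 to 0.275 CPM and DCN from 1.04 CPM to 0 counts. The part of these markers in the channel results was not tested, and in bulk RNA fewer cells of a type and less RNA per cell cannot be told apart.

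No count was found in any library for 24 of the 99 members, and the same held for 7223 of all 27980 symbols. A further 36 members had too few counts to be tested, and 39 were tested. Of all symbols, 12507 were not tested and 15473 were. Of the 39, shTRIP6 had 13 higher and 11 lower, and 15 did not pass (edgeR quasi-likelihood test, Benjamini-Hochberg adjusted p under 0.05 over all 15473 genes tested). The same rule called 60.1% of all genes tested, 29% as higher and 31.2% as lower, so the 61.5% called among the tested members was close to the background. Large falls took a larger share: 8 of the 39 tested members were at least 10-fold lower against 4.14% of all genes tested, and 5 were at least 2-fold higher against 4.38%. These shares describe the members and were not tested as a list. Each of those 8 members passed the filter on low counts, 0.322 CPM in the 3 libraries of a group, only through shControl, so a member of this kind had to differ to be tested. Of the 5 rises, KCNK6 and KCNAB3 passed it only through shTRIP6, and the same holds for them. The median log2 fold change was 0.27 over the tested members and 0.00 over all genes tested (-0.004).

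**Figure D1:**
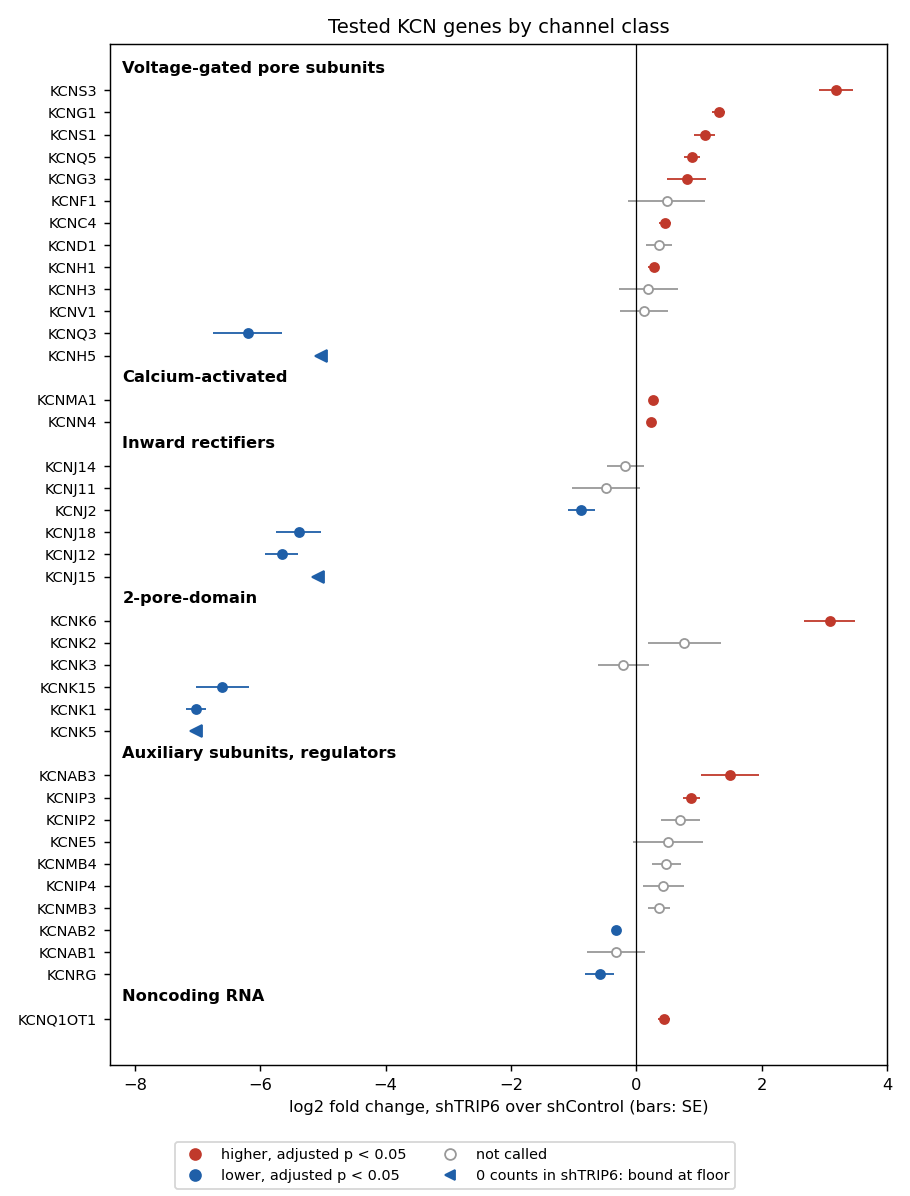
Log2 fold change of tested members (shTRIP6 over shControl, bars are SE) ordered within channel classes, with filled points for genes called at an adjusted p under 0.05 and open points for genes not called. Triangles mark the 3 genes with 0 counts in every shTRIP6 library, drawn at the bound that a floor of 3 counts over the group gives. The 8 deep falls lie among 2-pore-domain, inward rectifier and voltage-gated genes, and KCNS3 and KCNK6 are the highest points.

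The bases upstream of 4 genes from both ends of this range are shown here, as examples of members with a large fall or rise. Each run is RefSeq sequence of build GRCh38.p14, read 5′ to 3′ on the strand of the gene, and ends before the first exon in RefSeq and GENCODE. Capitals mark CG dinucleotides, which read the same on both strands. KCNK1 and KCNK5 were nearly absent from shTRIP6, and KCNK6 and KCNS3 were low in shControl.
KCNK1 (chr1:233613856-233614003, plus strand): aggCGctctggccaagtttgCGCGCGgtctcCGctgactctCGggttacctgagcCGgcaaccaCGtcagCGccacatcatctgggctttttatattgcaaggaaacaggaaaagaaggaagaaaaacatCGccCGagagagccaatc
KCNK5 (chr6:39229476-39229725, minus strand): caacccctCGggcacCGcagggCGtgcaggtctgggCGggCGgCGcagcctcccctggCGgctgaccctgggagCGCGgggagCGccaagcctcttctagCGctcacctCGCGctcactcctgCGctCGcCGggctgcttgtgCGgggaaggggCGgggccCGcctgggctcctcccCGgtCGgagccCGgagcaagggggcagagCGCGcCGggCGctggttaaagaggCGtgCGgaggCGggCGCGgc
KCNK6 (chr19:38319595-38319843, plus strand): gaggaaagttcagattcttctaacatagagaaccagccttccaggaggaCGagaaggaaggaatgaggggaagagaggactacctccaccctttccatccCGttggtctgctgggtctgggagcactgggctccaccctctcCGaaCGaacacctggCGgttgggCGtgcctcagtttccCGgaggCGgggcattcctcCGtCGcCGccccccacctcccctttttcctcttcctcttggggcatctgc
KCNS3 (chr2:17877597-17877846, plus strand): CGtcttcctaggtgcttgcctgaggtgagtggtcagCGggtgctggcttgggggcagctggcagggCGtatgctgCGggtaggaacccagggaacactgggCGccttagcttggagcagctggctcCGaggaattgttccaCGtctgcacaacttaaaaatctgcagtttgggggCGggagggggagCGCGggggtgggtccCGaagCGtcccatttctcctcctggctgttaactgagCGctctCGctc
Within the 250 bases before the RefSeq start, CG occurred 30 times for KCNK1, 31 times for KCNK5, 11 times for KCNK6 and 14 times for KCNS3 at its upstream start. The KCNK1 run shown holds only 148 of those bases and 11 of the 30 CG. The rest of its window lies past the GENCODE start of the gene at 233614004. KCNS3 has another listed start, whose 250 bases hold 38. Of all 35116 RefSeq promoter windows of that length 93.9% hold at least 1 CG and 32.4% hold at least 20. Among the 16277 windows of genes tested here, 50% hold at least 20 and the median is 19. The windows of 8 members called lower (11 windows) held 1 to 32 with a median of 16, and those of 9 members called higher (11 windows) held 1 to 46 with a median of 25. The upstream composition of the members called in each direction therefore overlapped widely. RefSeq windows were matched for 73 of the 99 members, and KCNK15 and KCNJ12 are not among them.

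The 2-pore-domain genes, whose products pass the background potassium current of many cells, were much lower in shTRIP6 as a sum. Of 15 KCNK genes 6 were tested, with 1 higher, 3 lower and 2 not called. That is 66.7% called, against 60.1% of all genes tested. Summed over the class and scaled to exon length, the level was 13.3, 13.8 and 14.9 CPM per kilobase in the shControl libraries and 1.32, 1.18 and 1.05 in the shTRIP6 libraries, or 8.5% of control. KCNK1 made up 72.1% of the class in shControl, and KCNK6 made up 46% of what was left in shTRIP6. The class thus changed both its level and its leading gene.

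KCNK1, on chromosome 1 from 233614004 to 233672512 (GRCh38, plus strand, protein-coding), encodes a weakly inward rectifying background channel. Its level was 35.4, 35.7 and 38.7 CPM in shControl and 0.22, 0.352 and 0.257 CPM in shTRIP6. No library of a group came near the other group, and the shTRIP6 mean was 0.754% of the control mean (log2 fold change -7.03 ± 0.16, edgeR adjusted p = 1.26e-17). KCNK5, on chromosome 6 from 39188973 to 39229450 (minus strand), encodes an alkaline-activated channel known from kidney and from cell volume regulation. It stood at 3.5, 3.98 and 4.98 CPM in shControl and had no count in any shTRIP6 library. Set against 3 counts for the whole group it was at least 130.5-fold lower (edgeR adjusted p = 1.03e-09). KCNK15, on chromosome 20 from 44745780 to 44752313 (plus strand), encodes a subunit that gives no current of its own in most tests. It was at 4.5, 5.62 and 6.53 CPM in shControl and at 0.0941, 0 and 0.0643 CPM in shTRIP6, a total of 5 counts (log2 fold change -6.61 ± 0.42, edgeR adjusted p = 1.39e-10, and -7.26 without shTRIP6 replicate 1). Exons of KCNK15 overlap those of KCNK15-AS1 and RIMS4, and whether reads were counted by strand is not stated in the sources used here.

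KCNK6 moved the other way. The gene lies on chromosome 19 from 38319844 to 38332076 (plus strand) and encodes a channel related to that of KCNK1. It was at 3.99, 3.36 and 2.73 CPM in shTRIP6 against 0.773, 0.161 and 0.259 CPM in shControl, with every shTRIP6 library above every shControl library (log2 fold change 3.08 ± 0.40, edgeR adjusted p = 2.35e-06, and 3.98 without shControl replicate 1). Per kilobase of exon it reached 0.544 CPM in shTRIP6, where KCNK1 had been at 10.1 in shControl. KCNK2, a mechanosensitive channel gene, stood at 0.806 ± 0.0885 against 0.477 ± 0.551 CPM and KCNK3, an acid-sensitive channel gene, at 0.858 ± 0.378 against 0.992 ± 0.0436 CPM (SD, n = 3), and neither passed the test. Below the filter, KCNK13 had 24 counts in shTRIP6 and 2 in shControl, and KCNK7 had 13 and 36. The read-through symbol KCNK4-TEX40, which is not a member, was higher at 1.64 against 0.637 CPM, while KCNK4, whose exons it shares, had 0 counts in shTRIP6 and 11 in shControl, all 11 in shControl replicate 1.

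**Figure D2:**
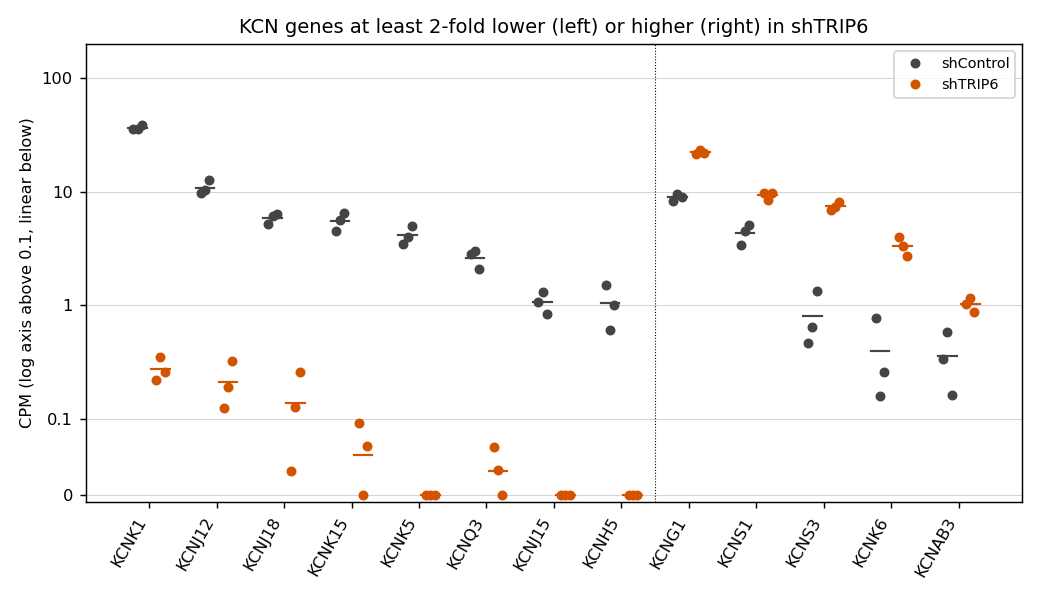
CPM in each library for the 13 members called and at least 2-fold lower (left of the dotted line) or higher (right) in shTRIP6, on an axis that is logarithmic above 0.1 CPM and linear below. Points are libraries and short lines are group means. KCNK5, KCNJ15 and KCNH5 lie at 0 in all 3 shTRIP6 libraries, and no gene shown has overlapping groups.

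Inward rectifiers hold the membrane near the potassium equilibrium potential. Of 16 KCNJ genes 6 were tested, and 0 were higher, 4 were lower and 2 were not called. That is 66.7% called, against 60.1% of all genes tested. The summed level of the class was 6.09, 6.33 and 6.58 CPM per kilobase in shControl and 1.17, 1.18 and 1.19 in shTRIP6, or 18.6% of control. Most of the shControl sum came from 2 near copies, KCNJ18 (2.70 CPM per kilobase, 42.6% of the sum) and KCNJ12 (1.94). The fall of the sum is therefore largely theirs, and their values are uncertain for the reason given below. KCNJ2 went from 0.918 to 0.499 and KCNJ14, which was not called, from 0.429 to 0.379. KCNJ12 stood at 9.78, 10.3 and 12.6 CPM in shControl and at 0.126, 0.192 and 0.322 CPM in shTRIP6 (log2 fold change -5.66 ± 0.26, edgeR adjusted p = 1.06e-12). It encodes a strong inward rectifier of heart and muscle and lies on chromosome 17 from 21376197 to 21419872 (plus strand). KCNJ18, a near copy on the same chromosome from 21692523 to 21704612, stood at 5.24, 6.13 and 6.4 CPM in shControl and at 0.0314, 0.128 and 0.257 CPM in shTRIP6 (log2 fold change -5.38 ± 0.36, edgeR adjusted p = 2.40e-10, and -6.14 without shTRIP6 replicate 3). The shortest GENCODE transcripts of this gene pair, 2196 and 2198 bases long, are 98.2% identical, and the KCNJ18 count was 50.6% to 59.7% of the KCNJ12 count in the shControl libraries. Whether reads were shared between the copies was not tested, so the values of each gene are uncertain and their falls may not be independent.

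KCNJ2, the closest functional relative of KCNJ12, was lower by much less, at 2.54, 3.33 and 2.48 CPM in shTRIP6 against 6.22, 5.14 and 4.01 CPM in shControl (log2 fold change -0.88 ± 0.21, edgeR adjusted p = 0.00136). With KCNJ12 and KCNJ18 nearly gone, KCNJ2 made up 42.2% of the summed inward rectifier level in shTRIP6. KCNJ15, an inward rectifier gene of kidney and other epithelia on chromosome 21 from 38155549 to 38307357, was at 1.08, 1.32 and 0.841 CPM in shControl and at 0 counts in every shTRIP6 library, a fall of at least 33.9-fold (edgeR adjusted p = 2.32e-06). Exons of KCNJ2 overlap KCNJ2-AS1 and those of KCNJ15 overlap DSCR8. KCNJ14 stood at 1.64 ± 0.256 against 1.86 ± 0.494 CPM and did not pass. KCNJ11, the pore of ATP-sensitive channels, was at 0.381 ± 0.0789 against 0.539 ± 0.358 CPM and did not pass, and ABCC9, a sulfonylurea receptor that joins such channels, was at 34.1 ± 4.77 against 36.7 ± 8.22 CPM, also without a call.

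**Figure D3:**
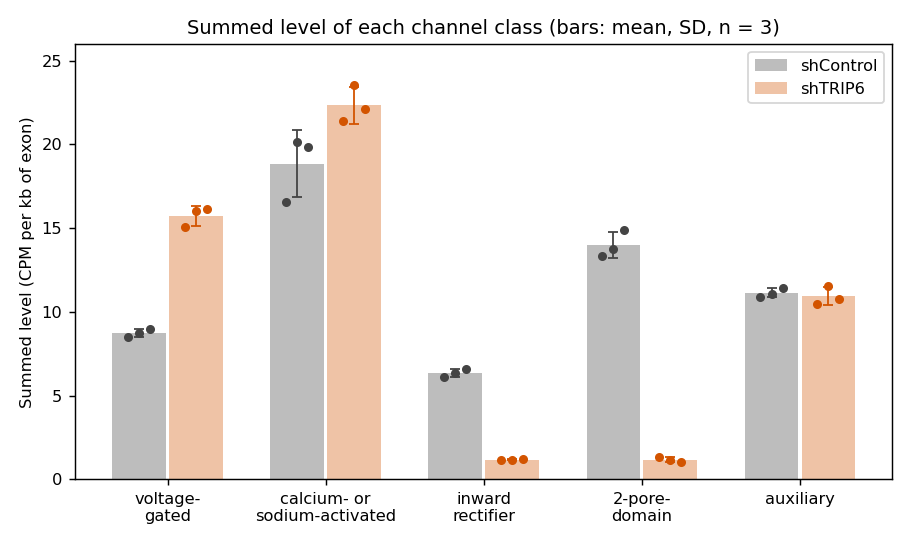
Summed level of each channel class per library in CPM per kilobase of exon (points), with the group mean as a bar and the SD as a whisker (n = 3). The 2-pore-domain and inward rectifier sums are low in all 3 shTRIP6 libraries, the voltage-gated sum is higher there, and the auxiliary sum is nearly equal in the groups.

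Voltage-gated pore genes as a class went in the other direction on summed level, from 8.52, 8.73 and 9.01 CPM per kilobase in shControl to 15.1, 16.1 and 16.1 in shTRIP6, or 179.8% of control. Of 40 such genes 14 were tested, with 7 higher, 2 lower and 5 not called. That is 64.3% called, against 60.1% of all genes tested. The largest contributor was KCNH1 in shControl, with 22.4% of the sum, and KCNG1 in shTRIP6, with 26%. A sum over genes is a level and not a count of channels, since several of these genes encode subunits that form no channel alone. Of such genes, KCNG1, KCNS3 and KCNS1 rose from 1.65, 0.26 and 0.962 CPM per kilobase in shControl to 4.09, 2.37 and 2.05 in shTRIP6. Among the other voltage-gated genes, KCNQ5 rose from 0.907 to 1.67 and KCNH1 from 1.96 to 2.37. The 2 genes called lower, KCNQ3 and KCNH5, were at only 0.209 and 0.085 in shControl.

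The electrically silent subunits KCNF, KCNG, KCNS and KCNV, which join Kv2 channels and change their gating, gave 4 of the 7 rises. Of 10 such genes 6 were tested, with 4 higher, 0 lower and 2 not called. That is 66.7% called, all higher, against 60.1% of all genes tested called and 29% called higher. KCNS3 (chromosome 2 from 17877847 to 18361616, plus strand) stood at 6.9, 7.29 and 8.07 CPM in shTRIP6 against 0.471, 0.642 and 1.33 CPM in shControl (log2 fold change 3.18 ± 0.27, edgeR adjusted p = 6.65e-09). KCNG1 (chromosome 20 from 51003656 to 51023129, minus strand) was at 21.6, 23.2 and 21.9 CPM against 8.27, 9.53 and 9.06 CPM (log2 fold change 1.31 ± 0.10, edgeR adjusted p = 1.73e-09). KCNS1 was at 9.67, 8.41 and 9.77 CPM against 3.43, 4.56 and 5.11 CPM (log2 fold change 1.09 ± 0.16, edgeR adjusted p = 1.18e-05). In each of these genes every shTRIP6 library lay above every shControl library.

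KCNG3 was at 2.42, 2.11 and 1.80 CPM in shTRIP6 against 0.84, 1.12 and 1.65 CPM in shControl (log2 fold change 0.80 ± 0.31, edgeR adjusted p = 0.0322). It did not pass in DESeq2 (adjusted p = 0.0537) or, in edgeR, without shTRIP6 replicate 1 (0.12) or 2 (0.0715) or shControl replicate 1 (0.0976) or 2 (0.0782), and its alternatives spanned 0.0102 to 0.12. KCNV1 (1.32, 1.76 and 1.80 against 2.12, 1.83 and 0.55 CPM) and KCNF1 (0.533 ± 0.423 against 0.378 ± 0.216 CPM) did not pass. AMIGO1, a membrane protein that accompanies Kv2 channels, was at 0.0941, 0.128 and 0.129 CPM in shTRIP6 against 5.78, 6.04 and 6.31 CPM in shControl (log2 fold change -5.65 ± 0.31, edgeR adjusted p = 1.33e-11).

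Within the KCNQ subfamily, whose members carry slow potassium currents that dampen excitability, the genes parted. KCNQ5 was at 12, 13.3 and 12.7 CPM in shTRIP6 against 5.92, 7.22 and 7.47 CPM in shControl (log2 fold change 0.88 ± 0.13, edgeR adjusted p = 9.00e-06). KCNQ3, which commonly pairs with other KCNQ subunits, was at 2.86, 2.99 and 2.07 CPM in shControl and at 0.0628, 0.032 and 0 CPM in shTRIP6. That is 242 counts against 3, a ratio of 82.8 with a 95% exact counting interval of 28 to 404 (edgeR adjusted p = 1.58e-08). The fitted log2 fold change was -6.20, and -7.03 without shTRIP6 replicate 1, which held 2 of the 3 counts. KCNQ1, a main channel of chloride-secreting epithelia, had 0 counts in shTRIP6 and 10 in shControl, below the filter. KCNQ1OT1, the imprinted noncoding RNA transcribed across KCNQ1 from the opposite strand, was at 21.8, 21.3 and 22.5 CPM in shTRIP6 against 16.2, 17.6 and 14.6 CPM in shControl (log2 fold change 0.44 ± 0.09, edgeR adjusted p = 0.00046).

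The KCNH genes parted in the same way. KCNH1, the ether-a-go-go channel gene often found active in tumours, was at 22.3, 24.1 and 23.5 CPM in shTRIP6 against 20.9, 16.9 and 19.9 CPM in shControl (log2 fold change 0.27 ± 0.09, edgeR adjusted p = 0.0162). The call was lost without shTRIP6 replicate 2 (0.059) or shControl replicate 2 (0.0964), and its alternatives spanned 0.0023 to 0.0964. KCNH5, its nearest paralog, was at 1.51, 0.61 and 1.00 CPM in shControl and at 0 counts in every shTRIP6 library, a fall of at least 32.7-fold (edgeR adjusted p = 6.08e-06). Of the genes below the filter, KCNH2 had 5 counts in shTRIP6 and 20 in shControl and KCNH4 had 4 and 34. KCNC4, a fast voltage-gated channel gene, rose from 17.3 ± 1.84 to 23.7 ± 1.65 CPM (log2 fold change 0.45 ± 0.10, edgeR adjusted p = 0.000496), and KCND1, a transient-current gene, stood at 4.12 ± 0.512 against 3.21 ± 0.777 CPM without a call. KCNH3 (0.734 ± 0.202 against 0.641 ± 0.401 CPM) did not pass either. Of the 8 KCNA genes, 7 had no count and KCNA7 had 7 counts, all in shTRIP6 replicates 1 and 2.

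Of the 8 calcium- or sodium-activated pore genes 2 were tested, and both rose by a small amount. Of all genes tested, 29% were called higher. KCNN4, the intermediate-conductance channel of epithelia and lymphocytes, had the highest level per length of all members in both groups, at 18.4 CPM per kilobase in shTRIP6 and 15.6 in shControl. In CPM it was at 59.4, 66.7 and 61.8 against 45.8, 57.4 and 55.9, so that its lowest shTRIP6 library stood just above its highest shControl library (log2 fold change 0.24 ± 0.08, edgeR adjusted p = 0.0119). The call was lost without shTRIP6 replicate 2 (0.0697), and its alternatives spanned 0.0025 to 0.0697. KCNMA1, the large-conductance BK channel gene, was at 137, 140.1 and 138 CPM in shTRIP6 against 107, 116 and 122 CPM in shControl (log2 fold change 0.27 ± 0.05, edgeR adjusted p = 0.000258). Per kilobase of its long merged exons KCNMA1 was at 3.88 CPM in shTRIP6 and 3.22 in shControl. The other 6 genes of this class were below the filter.

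BK channels take their working range from auxiliary subunits. The beta subunit genes KCNMB3 (5.36 ± 0.403 against 4.17 ± 0.61 CPM) and KCNMB4 (2.93 ± 0.315 against 2.11 ± 0.306 CPM) did not pass the test (edgeR adjusted p = 0.0793 and 0.087), although their shTRIP6 libraries lay above their shControl libraries as for KCNMA1, and exons of KCNMB3 overlap those of PIK3CA. The gamma subunit gene LRRC26, whose product lets BK channels open near the resting potential, was at 0.188, 0.192 and 0.45 CPM in shTRIP6 against 9.51, 9.57 and 11.5 CPM in shControl (log2 fold change -5.19 ± 0.26, edgeR adjusted p = 3.66e-12). The groups did not overlap for LRRC26 or for KCNMA1, which lay on opposite sides.

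**Figure D4:**
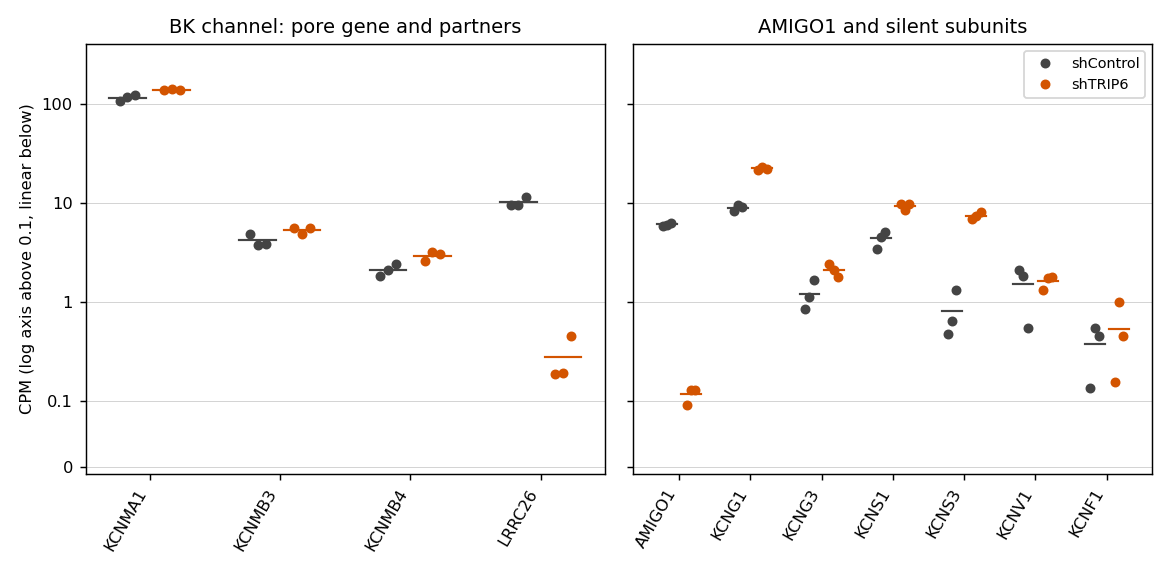
CPM in each library for BK channel genes (left) and for AMIGO1 and the silent subunits (right), on an axis that is logarithmic above 0.1 CPM and linear below. Points are libraries and short lines are group means. LRRC26 and AMIGO1 lie below 0.5 CPM in all shTRIP6 libraries and above 5 CPM in all shControl libraries.

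Of the 18 auxiliary subunits and regulators with a KCN symbol, 10 were tested, with 2 higher, 2 lower and 6 not called. That is 40% called, against 60.1% of all genes tested. The summed level of the class in shTRIP6 was 98.3% of control. KCNAB2, a cytosolic beta subunit of KCNA channels, was the most abundant at 49, 48.3 and 45.5 CPM in shTRIP6 against 54.8, 58.7 and 64.6 CPM in shControl (log2 fold change -0.32 ± 0.07, edgeR adjusted p = 0.00051). Its exons overlap those of NPHP4. KCNAB3, of the same subfamily, rose from 0.359 ± 0.209 to 1.02 ± 0.142 CPM (log2 fold change 1.49 ± 0.47, edgeR adjusted p = 0.00973). KCNIP3, a calcium-binding partner of Kv4 channels that also acts as a transcriptional repressor, was at 10.5, 12.4 and 12.9 CPM in shTRIP6 against 6.69, 5.94 and 6.82 CPM in shControl (log2 fold change 0.88 ± 0.13, edgeR adjusted p = 1.23e-05). Its relatives KCNIP2 (2.46 ± 0.77 against 1.51 ± 0.48 CPM) and KCNIP4 (1.45 ± 0.264 against 1.08 ± 0.182 CPM) did not pass, although their libraries did not overlap. KCNAB1 (0.711 ± 0.229 against 0.887 ± 0.566 CPM) did not pass. Over all tested members the libraries did not overlap in 28 of 39, against 65.3% of all genes tested.

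KCNRG, a soluble protein that hinders channel assembly, was at 1.91, 2.65 and 1.93 CPM in shTRIP6 against 3.6, 3.4 and 2.75 CPM in shControl (log2 fold change -0.58 ± 0.23, edgeR adjusted p = 0.0376). The call was lost under upper-quartile scaling (0.0539), in DESeq2 (0.0666) and without shTRIP6 replicate 1 (0.132) or 3 (0.122) or shControl replicate 1 (0.0909) or 2 (0.0917), and its alternatives spanned 0.0242 to 0.132. Its exons overlap those of TRIM13. Among the KCNE genes, small single-span partners, only KCNE5 had enough counts to be tested, at 0.467 ± 0.122 against 0.329 ± 0.203 CPM without a call, and KCNE2 had 16 counts in shTRIP6 and 2 in shControl.

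Among the 60 members that were not tested, 24 had no count, 16 had 1 to 9 counts and 20 had 10 to 49 counts over the 6 libraries. Those not yet given with fewer counts in shTRIP6 were the inward rectifier gene KCNJ5 (5 against 26), the silent subunit genes KCNG2 (2 against 17) and KCNV2 (11 against 29) and the sodium-activated channel gene KCNT2 (8 against 14). The silent subunit gene KCNS2 had 26 counts against 11, the small-conductance calcium-activated channel genes KCNN1 and KCNN2 had 15 against 7 and 13 against 8, KCNJ13 had 14 against 8, and KCNC1 had 13 against 8. KCNE1 had 8 against 4 and KCNE1B, its near copy, 6 against 4. At this depth no difference was tested for these genes.

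Of the other genes of potassium transport, 39 in a list chosen by role, 19 were tested, with 4 higher and 9 lower. That is 21.1% higher and 47.4% lower, against 29% and 31.2% of all genes tested. Under upper-quartile scaling the 4 higher and 9 lower became 7 and 5. CALM2 and CALM3, 2 of the 3 genes for calmodulin, which is the calcium sensor of KCNN channels, rose by 0.54 and 0.43 on the log2 scale. TMEM38B, which encodes a cation channel of the endoplasmic reticulum, was called higher at 0.25, and its call was lost without shTRIP6 replicate 3 (0.101) or shControl replicate 1 (0.0716). Besides AMIGO1 and LRRC26 the largest falls were those of FXYD3, a pump regulator gene at 0.0321 ± 0.0322 against 1.13 ± 0.528 CPM (log2 fold change -4.98, and -5.82 without shTRIP6 replicate 3), TMEM38A (log2 fold change -1.47) and the pacemaker channel gene HCN2, at 10.5 ± 0.258 against 23.1 ± 0.566 CPM (log2 fold change -1.14 ± 0.09, edgeR adjusted p = 4.04e-09).

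The nearest tested genes on either side, 4 each, were read for the members with large changes. Of all genes tested, 29% were called higher and 31.2% lower, so calls among neighbours are common. Some were small, such as ATP9A near KCNG1 (-0.14) and EFR3A near KCNQ3 (0.20). Counts of called neighbours were not tested. Around KCNK1 the 8 neighbours lay between -0.72 and 0.37 on the log2 scale, and around KCNS3 between -0.19 and 0.44. The directly adjacent genes of KCNK1, MAP3K21 and SLC35F3, were not called. Around KCNK5 the range was -3.08 to 1.32, with 5 neighbours higher, and KIF6, directly next to it, was the only neighbour called lower (-3.08). At KCNJ12 and KCNJ18 the gene between the copies, C17orf51, was not called, at 25.7 against 27 CPM. Of the 8 neighbours of KCNJ12, only its copy KCNJ18 fell by more than 1 on the log2 scale. Near KCNJ18, KSR1 fell too (-1.49). KCNH5 lies next to RHOJ, which was lower too (log2 fold change -3.62), and SYT16 on its other side was not called. Around KCNK6, which rose, 6 of the 8 neighbours were higher, while C19orf33 fell (39.1 to 0.648 CPM, log2 fold change -5.91). Around KCNG1, which also rose, 6 of the 8 neighbours were lower, with SALL4 at -3.37 and TSHZ2 at -6.17. KCNJ15 lies next to ETS2, which was lower (-1.58), and DYRK1A on its other side was not called. Around KCNQ3 the range was -2.99 to 3.13, with 7 of the 8 neighbours higher.

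KCNK15 differed. On chromosome 20 the genes next to it, WISP2 (32.2 to 0.455 CPM, log2 fold change -6.13) and RIMS4 (11.9 to 0.137 CPM, -6.39), and the overlapping KCNK15-AS1 (1.41 to 0.0423 CPM, -4.92) and LINC01260 (-2.15) were lower too. Beyond them ADA, at a log2 fold change of 0.71, was higher and YWHAB, at -0.05, was not called. KCNS1 lies further along the same chromosome and rose, while PI3 and SLPI, the next tested genes after it, fell (-5.18 and -7.18).

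**Figure D5:**
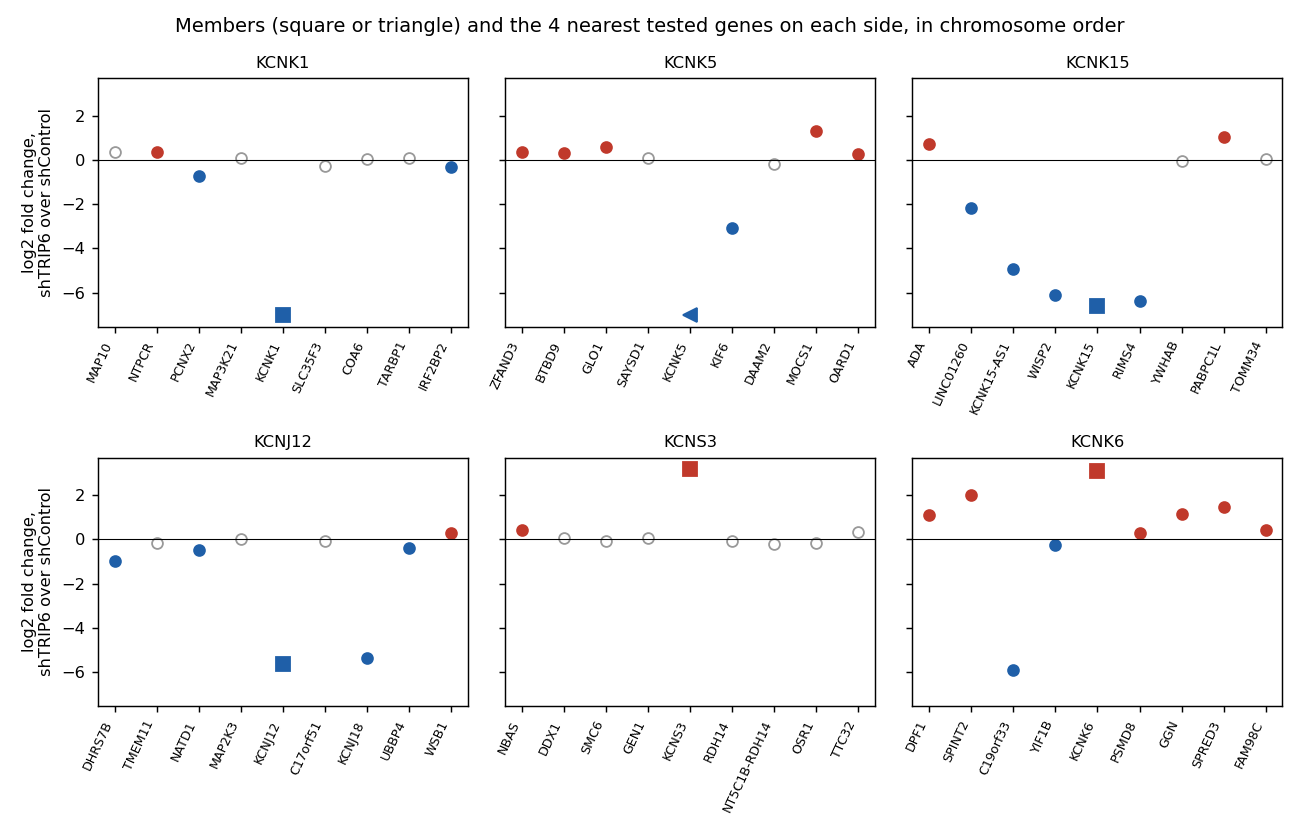
Log2 fold change (shTRIP6 over shControl) of 6 members, drawn as squares, or as a triangle for KCNK5 at the bound its floor gives, and of the 4 nearest tested genes on each side in chromosome order. Filled red points were called higher, filled blue points lower, and open points were not called. KCNK1 and KCNJ12 lie far below most neighbours, KCNS3 lies above its own, and KCNK15 sits in a run of lower genes from LINC01260 to RIMS4.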

How the data were processed

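Files deposited by the authors held raw read counts per gene symbol for 6 libraries. TopHat2, edgeR, limma and hg38 appear in the submitters' processing notes without role or version, and how reads were assigned to genes is not stated. Counts of all genes were fitted with edgeR 4.0.16 in R 4.3.3 by its quasi-likelihood test, with TMM scaling, the filterByExpr filter, a single term for group and Benjamini-Hochberg adjustment. SE values derive from the F statistic of that test. The members and lists were chosen with earlier results of these data known. Named genes were TRIP6, every called member, uncalled members at a mean of 1 CPM or more, untested members with 10 counts or more, and up to 5 rises and 5 falls of the related list at 1 CPM or more. Markers, neighbours and other genes, such as KCNK2, were named after their values were seen. Some genes that these rules take are not reported here. Exons came from GENCODE 29 (GRCh38), which holds all 99 members, 97 as protein-coding. Exons of 20 members overlap another gene's. Levels per length use merged exons. On simulated data with 15306 genes, 48 to 50 genes were changed at each fold. The test recovered 22.4% of genes changed 1.2-fold, 72% changed 1.5-fold, 79.6% changed 2-fold and 97.9% changed 4-fold. Far more genes were called in the real data (60.1%), which changes the adjusted cutoff, so these shares do not give the recovery here. Small differences that did not pass may be missed. Alternatives were scaling by RLE, by upper quartile or not at all, no filter, 1 CPM in 3 libraries, DESeq2 1.42.0, limma-voom (limma 3.58.1), a replicate block and leaving out each library. No pair of replicates agreed within sampling noise (chi-square per degree of freedom 3.05 to 11.7).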

Additional observations from a re-analysis of the deposited data

How the results depend on the processing

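Of the 24 called members, 20 kept their call in every alternative that tested them and 4 lost it in at least 1 (KCNG3, KCNH1, KCNN4 and KCNRG, given above); 0 changed direction. Of the 7 uncalled members named at 1 CPM or more, KCND1, KCNIP2 and KCNMB3 were called in at least 1 alternative. Without shControl replicate 2 the sign of KCNJ14 turned, and without shControl replicate 3 that of KCNV1. Leaving out each library put their log2 fold changes at -0.35 to 0.037 for KCNJ14 and -0.28 to 0.45 for KCNV1, and neither passed. Counts of members called lay between 10 and 15 higher and between 9 and 15 lower over these alternatives. An alternative chosen after seeing the data kept the 27 tested members whose exons overlap those of no other gene. Of these, 11 were higher and 6 lower, against 13 and 11 of all 39 tested members. The lower count thus dropped by more than the higher count, and the cause was not tested. Under upper-quartile scaling the related list had 7 higher and 5 lower; the cause was not tested. Same-numbered replicates were not paired (correlation of deviations -0.045 to -0.023), and the replicate block gave 14 members higher and 11 lower. Depth limits the 60 members that were not tested.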
